A study of Homo sapiens with 6 samples.

Results

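The interleukin 6 (IL6) family of cytokines and its receptors were examined in the RNA-seq counts of OV3/SCR and OV3/COX1KD cells. The 10 genes were chosen by symbol from the 34811 genes of the count table. They are the ligand genes IL6, LIF and IL11, the receptor genes IL6R, IL6ST, LIFR, OSMR and IL11RA, the transcription factor gene STAT3 and the feedback inhibitor gene SOCS3. All 10 passed the filter on low counts, IL6 only through its OV3/SCR libraries, where it was higher. OVCAR-3 is an established human ovarian carcinoma line. OV3/COX1KD cells carry a pRS HuSH-29 plasmid with an shRNA against COX-1 (gene PTGS1) and OV3/SCR cells the same plasmid with a scrambled shRNA, and both were grown in RPMI-1640 with fetal bovine serum after puromycin selection. Each condition was 1 stable clone, measured in 3 libraries from independent cell passages, so that clone and knockdown cannot be told apart.

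Cytokines of this family signal through the shared receptor chain gp130, the product of IL6ST. A ligand-specific chain joins it: the IL6 receptor for IL6, the IL11 receptor for IL11, the LIF receptor for LIF and the oncostatin M receptor for oncostatin M. The bound complex activates JAK kinases, which phosphorylate STAT3, and STAT3 induces SOCS3, which binds gp130 and shuts the signal down. IL6 and LIF are known as secreted factors of ovarian tumors and their ascites.

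Promoter sequences are shown for IL6, the family member with the lowest level after knockdown, and for LIFR and OSMR, receptor genes that lie side by side on chromosome 5 and moved in opposite directions. Each is the 300 bases from 250 before to 50 after a transcript start in RefSeq, build GRCh38.p14. Capitals mark matches on either strand to 5 motifs, STAT (TTCNNNGAA), NF-kB (the run in capitals nearest the IL6 start, with any base at the fifth position), C/EBP (TTGCNNAA), AP-1 (TGANTCA) and the core of the cyclic AMP response element (TGACGT).
IL6, chr7:22726950-22727249, plus strand: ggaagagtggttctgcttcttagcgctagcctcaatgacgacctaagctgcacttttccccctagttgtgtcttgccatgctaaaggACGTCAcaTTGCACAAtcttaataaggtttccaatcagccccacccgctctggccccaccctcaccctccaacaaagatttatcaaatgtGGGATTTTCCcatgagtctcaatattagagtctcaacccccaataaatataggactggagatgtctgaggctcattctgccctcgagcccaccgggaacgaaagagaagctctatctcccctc
OSMR, chr5:38845762-38846061, plus strand: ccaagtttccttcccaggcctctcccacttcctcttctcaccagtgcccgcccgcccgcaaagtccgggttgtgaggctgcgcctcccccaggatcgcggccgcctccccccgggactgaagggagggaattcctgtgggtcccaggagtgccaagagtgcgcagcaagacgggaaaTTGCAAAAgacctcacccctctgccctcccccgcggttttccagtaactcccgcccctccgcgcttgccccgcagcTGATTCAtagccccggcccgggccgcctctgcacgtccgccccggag
LIFR, chr5:38595356-38595655, minus strand: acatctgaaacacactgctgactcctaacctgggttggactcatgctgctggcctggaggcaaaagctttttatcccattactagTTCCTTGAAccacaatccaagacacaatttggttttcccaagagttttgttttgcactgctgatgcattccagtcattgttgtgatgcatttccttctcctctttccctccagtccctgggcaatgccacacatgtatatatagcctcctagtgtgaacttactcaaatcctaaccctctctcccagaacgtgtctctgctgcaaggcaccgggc
The IL6 window held the cyclic AMP core on its reverse strand, with its first base 163 bases before the start, a C/EBP match at 155 and an NF-kB match at 73 bases before the start. The OSMR window held a C/EBP match 73 bases before the start and an AP-1 match just after it. The LIFR window shown, the first listed of several, held a STAT match 165 bases before the start. Another LIFR window held a STAT match 182 and a C/EBP match 31 bases before its start, and a further LIFR window held no match. Windows were listed for 9 of the 10 genes, 13 windows in all, and LIF was not among them. Of the 13, 2 held a STAT match (both LIFR), 1 an NF-kB match, 3 a C/EBP match, 3 an AP-1 match and 1 the cyclic AMP core. Of all 35116 windows of the same length, 7.66% held a STAT match, 0.558% an NF-kB match, 10.5% a C/EBP match, 7.71% an AP-1 match and 7.98% the cyclic AMP core. Such matches describe letters and are not measured binding.

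The 6 libraries held between 25291505 and 27391538 counts on genes, and 3 counts, taken as the floor, corresponded to between 0.113 and 0.12 CPM (counts scaled by library size with edgeR's TMM factors). Counts of PTGS1 ranged from 641 to 713 in OV3/SCR and from 456 to 501 in OV3/COX1KD, a log2 fold change of -0.45 (edgeR FDR = 1.3e-06). Its mean level in OV3/COX1KD was 73.3% of the control, a fall smaller than the log2 limit of 0.5 used below. The 7 markers of ovarian serous carcinoma cells summed to between 4487 and 4522 CPM in OV3/SCR and between 5695 and 5870 CPM in OV3/COX1KD libraries, and while 5 of them rose, PAX8 fell from 756.4 to 446.6 CPM and KRT7 from 1041 to 942.5 CPM (means). The 5 fibroblast markers summed to between 10.9 and 11.6 CPM in OV3/SCR and between 6.57 and 7.43 CPM in OV3/COX1KD, the 5 leukocyte markers to at most 1.54 CPM and the 3 endothelial markers of the count table to at most 3.57 CPM in any library, with none of these markers at 0 in every library. Of the fibroblast markers COL1A1 fell, from 10.1 to 5.93 CPM (means), COL1A2 and DCN had no call, and LUM and PDGFRB were under the filter at up to 6 counts. The part of these differences in the results below was not tested.

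Changes were tested in all 17309 genes that passed the filter, with edgeR's quasi-likelihood test and Benjamini-Hochberg adjustment (FDR). Of the 10 family genes, 6 fell and 3 rose in OV3/COX1KD cells at an FDR under 0.01, and 1, IL11RA, had no call. Of all tested genes 47.9% passed this threshold, 22.1% lower and 25.8% higher. With a log2 fold change beyond 0.5 as well, 6 family genes were lower and 2 higher, against 10% and 9.87% of all tested genes, and 19.9% in both directions. A fold change above 2.5 at this FDR, the limit the study set for changed genes, was passed by 4 family genes, IL6, LIF, IL6R and OSMR, all lower, and by 3.92% of all tested genes, 2.34% lower. The libraries of the conditions did not overlap for 9 of the 10 genes, as for 63.2% of all tested genes. The median log2 fold change of the 10 genes was -0.83, and that of all tested genes was -0.01.

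**Figure D1:**
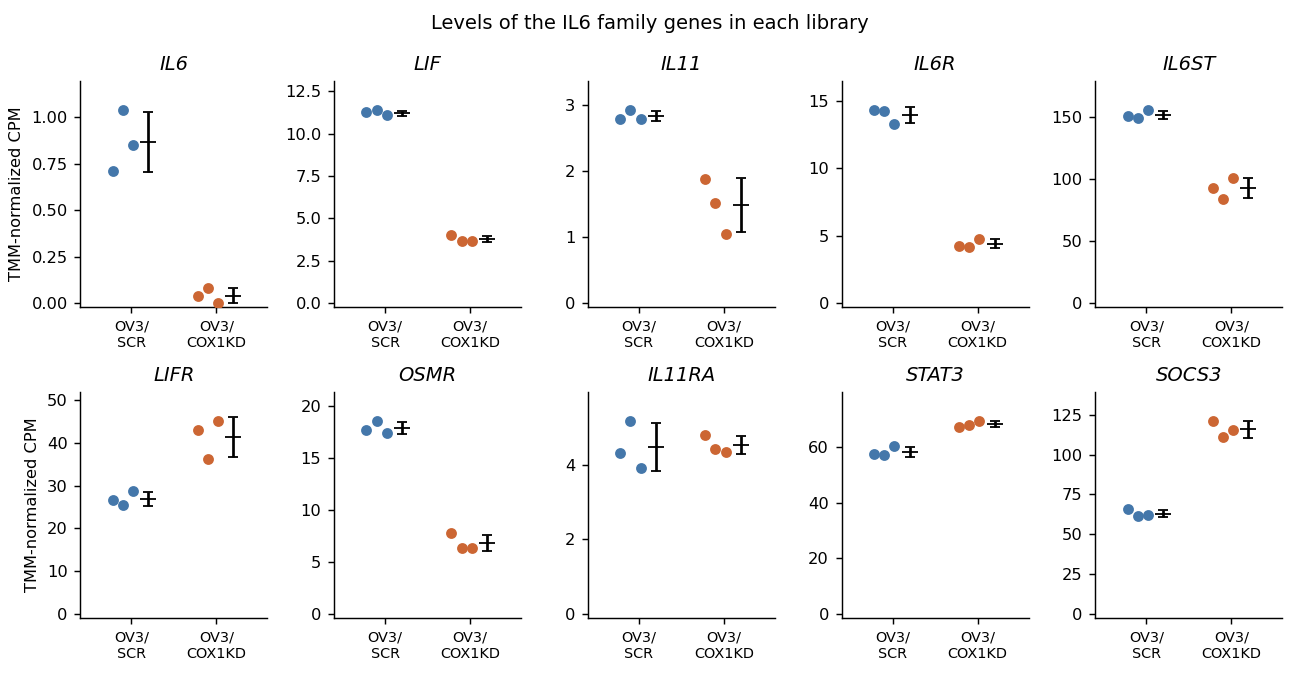
TMM-normalized CPM (y axis, from 0) of each family gene in the 3 OV3/SCR (blue) and 3 OV3/COX1KD (orange) libraries, with the mean and SD beside the points in black. The conditions are apart in every gene but IL11RA, with LIFR, STAT3 and SOCS3 higher and the other 6 lower in OV3/COX1KD.

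All 3 ligand genes were lower in OV3/COX1KD cells, where 22.1% of all tested genes were lower at an FDR under 0.01. IL6 (ENSG00000136244, chromosome 7 of GRCh37 from 22765503 to 22771621), the cytokine that names the family, was counted 19, 27 and 22 times in OV3/SCR and 1, 2 and 0 times in OV3/COX1KD libraries. IL6 was thus scarce in the control and at or under the floor of 3 counts in every knockdown library. In these bulk libraries, fewer cells making a transcript and less transcript per cell cannot be told apart. Its summed counts, 68 against 3, gave a level 22.2-fold higher in OV3/SCR, with an exact 95% interval from 7.27 to 110.2 that covers counting error only. IL6 passed the filter only through its OV3/SCR libraries, so its edgeR FDR of 1.0e-06 is not separate support for the fall. The fitted log2 fold change of -4.31 (standard error, SE, 0.538) depends on the prior count at such low levels. IL6-AS1, an antisense gene with 14 counts over the 6 libraries, shares 9.91% of the exon length of IL6, and without a stated strand setting the reads of that stretch cannot be told apart.

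LIF (ENSG00000128342, chromosome 22 from 30636442 to 30642748), a cytokine that acts on stem cells and in implantation, had 300, 296 and 286 counts in OV3/SCR and 101, 92 and 98 in OV3/COX1KD libraries. Its level fell from 11.2 ± 0.15 to 3.79 ± 0.195 CPM (SD, n = 3), a log2 fold change of -1.57 (SE 0.0937, edgeR FDR = 2.5e-11). The 3 knockdown libraries lay close together and far below the control.
IL11 (ENSG00000095752, chromosome 19 from 55875750 to 55881831), a cytokine of platelet formation and fibrosis, had 74, 76 and 72 counts in OV3/SCR and 47, 38 and 28 in OV3/COX1KD libraries. Its log2 fold change was -0.94 (SE 0.19, edgeR FDR = 2.8e-04). The knockdown libraries spread more than the control libraries, with an SD of 0.41 against 0.0786 CPM, and replicate 3 was the lowest.

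Of the receptor genes, 3 fell, 1 rose and 1 had no call, where 22.1% of all tested genes fell and 25.8% rose. IL6R (ENSG00000160712, chromosome 1 from 154377669 to 154441926), whose product binds IL6 on the cell surface or, when shed, in solution, had 382, 371 and 343 counts in OV3/SCR and 106, 105 and 127 in OV3/COX1KD libraries. Its level fell from 13.9 ± 0.588 to 4.39 ± 0.327 CPM (SD, n = 3), a log2 fold change of -1.66 (SE 0.0901, edgeR FDR = 5.4e-12). Every knockdown library held less than the lowest control library, and the mean was 31.5% of the control. Counts per gene do not part the transcripts of the membrane and soluble forms.

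IL6ST (ENSG00000134352, chromosome 5 from 55230923 to 55290850), which encodes gp130, had 4024, 3889 and 4030 counts in OV3/SCR and 2338, 2116 and 2687 in OV3/COX1KD libraries. It fell from 152 ± 3.45 to 92.7 ± 8.21 CPM (SD, n = 3), a log2 fold change of -0.71 (SE 0.0462, edgeR FDR = 8.6e-11). The mean kept 61% of the control level, a smaller fall than that of IL6R. The number of IL6ST counts per IL6R count was 10.5, 10.5 and 11.7 in OV3/SCR and 22.1, 20.2 and 21.2 in OV3/COX1KD libraries.

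OSMR (ENSG00000145623, chromosome 5 from 38845960 to 38945698), the partner of gp130 for oncostatin M and of IL31RA for interleukin 31, had 473, 485 and 451 counts in OV3/SCR and 195, 160 and 169 in OV3/COX1KD libraries. Its log2 fold change was -1.39 (SE 0.0823, edgeR FDR = 2.1e-11). No knockdown library came near the control, and the mean was 38.1% of it.
LIFR (ENSG00000113594, chromosome 5 from 38474770 to 38608456), the partner of gp130 for LIF and several other cytokines of the family, went the other way, with 711, 663 and 741 counts in OV3/SCR and 1081, 908 and 1205 in OV3/COX1KD libraries. Its level rose from 26.9 ± 1.63 to 41.5 ± 4.68 CPM (SD, n = 3), a log2 fold change of 0.62 (SE 0.0683, edgeR FDR = 1.7e-07). All knockdown libraries were above all control libraries, replicate 2 being the lowest of the 3.

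IL11RA (ENSG00000137070, chromosome 9 from 34652159 to 34661899), which binds IL11, had 115, 135 and 101 counts in OV3/SCR and 121, 111 and 116 in OV3/COX1KD libraries. The conditions overlapped, and the log2 fold change of 0.02 (SE 0.126, edgeR FDR = 0.904) had a 95% interval from -0.25 to 0.28, so that a fall as large as those of the other receptor genes lay outside it. In the annotation 32.5% of the exon length of IL11RA is shared with ENSG00000258728, a protein-coding gene model on the same strand that is not analysed here.

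Downstream, STAT3 (ENSG00000168610, chromosome 17 from 40465342 to 40540558) had 1534, 1485 and 1563 counts in OV3/SCR and 1694, 1701 and 1852 in OV3/COX1KD libraries. Its rise from 58.3 ± 1.87 to 68.2 ± 1.14 CPM (SD, n = 3) was small but larger than the spread between libraries, a log2 fold change of 0.23 (SE 0.0387, edgeR FDR = 4.9e-05). The phosphorylation that activates STAT3 is not seen in mRNA counts.
SOCS3 (ENSG00000184557, chromosome 17 from 76352859 to 76356158) had 1751, 1598 and 1601 counts in OV3/SCR and 3053, 2779 and 3075 in OV3/COX1KD libraries. It rose from 63 ± 2.36 to 115.9 ± 5.22 CPM (SD, n = 3), a log2 fold change of 0.88 (SE 0.0405, edgeR FDR = 4.5e-13). SOCS3 had the largest rise of the 10 genes, in cells in which all 3 ligand genes, IL6R, IL6ST and OSMR were lower and LIFR and STAT3 higher. The number of SOCS3 counts per STAT3 count went from 1.14, 1.08 and 1.02 in OV3/SCR to 1.8, 1.63 and 1.66 in OV3/COX1KD libraries.

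**Figure D2:**
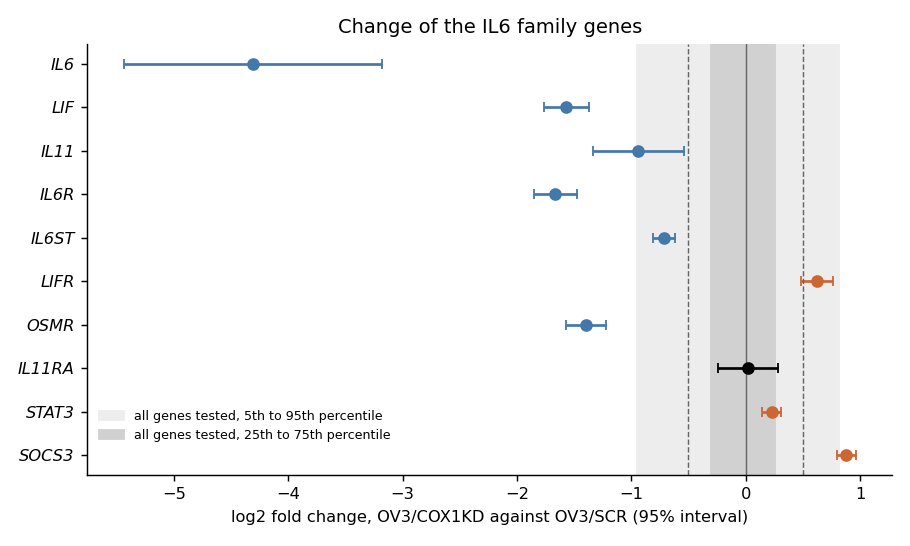
Log2 fold change of OV3/COX1KD against OV3/SCR (x axis) for each family gene, with its 95% interval from the edgeR fit. Blue marks lower, orange higher and black no call at an FDR under 0.01, dashed lines mark 0.5 either side of 0, and grey bands give the spread of all 17309 tested genes, from -0.30 to 0.26 for the 25th to 75th percentile and from -0.95 to 0.82 for the 5th to 95th.

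Levels of different genes were compared as CPM per kilobase of merged exons. In OV3/SCR cells the order ran from SOCS3 (23 ± 0.864, SD, n = 3) and IL6ST (12.6 ± 0.286) over STAT3 (5.2 ± 0.166), LIF (2.9 ± 0.0387), OSMR (2.5 ± 0.0844), LIFR (2.21 ± 0.134), IL6R (1.99 ± 0.0841), IL11 (1.06 ± 0.0294) and IL11RA (0.85 ± 0.124) to IL6 (0.201 ± 0.0376), with no overlap between the libraries of neighbours. The 4 ligand-specific receptor genes thus all lay below IL6ST, the shared chain. In OV3/COX1KD cells SOCS3 (42.4 ± 1.91), IL6ST (7.69 ± 0.681) and STAT3 (6.09 ± 0.102) were still the top 3, and LIFR (3.41 ± 0.385) came next. LIF (0.978 ± 0.0505), OSMR (0.951 ± 0.111), IL11RA (0.862 ± 0.0462), IL6R (0.628 ± 0.0467), IL11 (0.552 ± 0.153) and IL6 (0.00922 ± 0.00924) followed. In this order LIF overlapped OSMR, OSMR overlapped IL11RA and IL6R overlapped IL11. With the length of the canonical transcript, a choice made after seeing the data, 4 of the 10 genes kept their place in OV3/SCR and 6 in OV3/COX1KD. Then STAT3 (13.9 ± 0.233 CPM per kilobase) stood above IL6ST (10.3 ± 0.909) in OV3/COX1KD cells, and IL11RA (2.59 ± 0.378) did not separate from LIF (2.9 ± 0.0387) or LIFR (2.55 ± 0.154) in OV3/SCR cells.

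**Figure D3:**
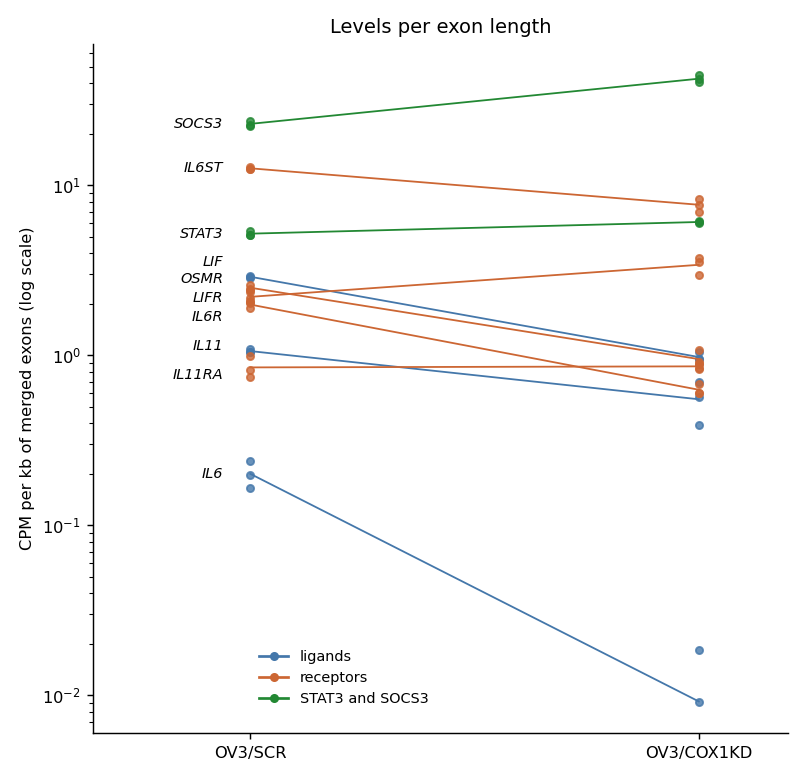
CPM per kilobase of merged exons (log scale) in OV3/SCR and OV3/COX1KD cells for the ligand genes (blue), the receptor genes (orange) and STAT3 and SOCS3 (green), with points for libraries and lines joining the means. LIFR and OSMR start close together, at 2.21 and 2.5, and end apart, at 3.41 and 0.951; the OV3/COX1KD library with 0 counts of IL6 is not drawn.

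The LIFR and OSMR genes are neighbours, 354.2 kb apart from midpoint to midpoint. There were 1.5, 1.37 and 1.64 LIFR counts per OSMR count in OV3/SCR and 5.54, 5.67 and 7.13 in OV3/COX1KD libraries. The ratio, which rests on counts not scaled by length, was higher by 2.02 on the log2 scale, with no overlap between conditions. Its exact two-sided permutation p was 0.1, the smallest that 3 libraries against 3 allow. Given no overlap, this p could take no other value, so it adds no support to the ratio. The same p was found for the IL6ST to IL6R, IL6ST to LIFR, IL6ST to OSMR and SOCS3 to STAT3 ratios, and adjustment over the 5 ratios left each at 0.1. Of the 10 other tested genes with any part within 2 Mb of either end of LIFR, 2 were higher at an FDR under 0.01. OSMR itself was the 1 lower gene, and the median log2 fold change of the 10 was 0.12. Of all tested genes 25.8% were higher and 22.1% lower at this FDR. Around OSMR, whose window reaches further along the chromosome, 3 of 13 tested genes were higher and 2 lower, with a median of 0.11. The 2 lower genes, PRKAA1 (log2 fold change -0.51, edgeR FDR = 1.5e-10) and CARD6 (-0.42, edgeR FDR = 0.00708), lay 1883.2 and 1955 kb from OSMR between midpoints. RICTOR, whose exons overlap 3.19% of the exon length of OSMR, had a log2 fold change of 0.004 (edgeR FDR = 0.951), and LIFR-AS1, whose exons overlap 5.17% of that of LIFR, one of 0.14 (edgeR FDR = 0.687). Among the genes within 2 Mb of each of the other 8 family genes, the median log2 fold change lay between -0.15 and 0.10.

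**Figure D4:**
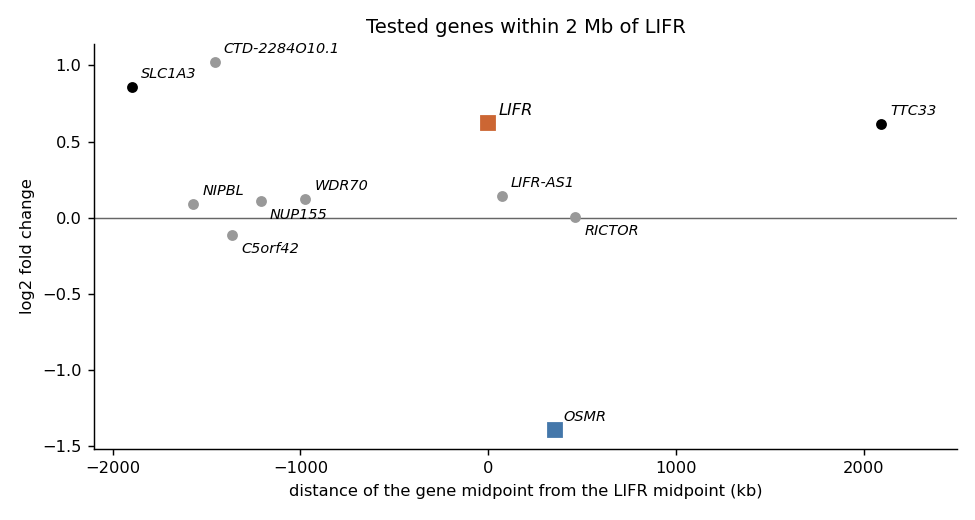
Log2 fold change of OV3/COX1KD against OV3/SCR (y axis) of LIFR (orange square), OSMR (blue square) and the other tested genes with any part within 2 Mb of LIFR by the distance from its midpoint to theirs (x axis, kb), black where the edgeR FDR was under 0.01 and grey otherwise. OSMR, at -1.39, is the only gene plotted below -0.5, and RICTOR next to it lies at 0.004.

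Of 8 other ligand genes of the family, 7 were in the count table, where IL31 was missing, and 4 were tested. Of these 4, 1 fell, where 22.1% of all tested genes fell. CLCF1, a ligand that acts through the ciliary neurotrophic factor receptor, gp130 and the LIF receptor, had 314, 285 and 318 counts in OV3/SCR and 86, 113 and 100 in OV3/COX1KD libraries, with a log2 fold change of -1.58 (edgeR FDR = 1.1e-10). CNTF and CTF1, between 9 and 28 counts a library, had no call, with log2 fold changes of 0.05 and -0.05. OSM, the gene for oncostatin M and the neighbour of LIF on chromosome 22 (from 30658818 to 30662840), had no counts in any OV3/SCR library and 3, 6 and 4 in OV3/COX1KD libraries. Set against 3 counts over the 3 OV3/SCR libraries together, its 13 counts gave a level 4.43-fold higher in OV3/COX1KD. This value is not a lower bound, since it leaves out the counting error of the 13 counts. It would be smaller against the floor of 3 counts in each library. OSM did not pass the filter. Without the filter the edgeR FDR of OSM was 0.00169. IL27 and EBI3 were also under the filter, with at most 9 counts in a library.

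Of the 3 other receptor genes, 1 rose, 1 fell and 1, IL27RA, had no call (log2 fold change 0.04, edgeR FDR = 0.712). Of all tested genes 25.8% rose and 22.1% fell. CNTFR, which encodes the chain that binds ciliary neurotrophic factor and CLCF1, had 48, 43 and 46 counts in OV3/SCR and 131, 138 and 140 in OV3/COX1KD libraries, with a log2 fold change of 1.61 (edgeR FDR = 3.8e-09). IL31RA, the partner of OSMR for interleukin 31, had 53, 59 and 60 counts in OV3/SCR and 13, 6 and 9 in OV3/COX1KD libraries, with a log2 fold change of -2.57 (edgeR FDR = 6.5e-08). For CNTFR and its ligand gene CLCF1 the directions were opposite, whereas the paired chains IL31RA and OSMR were both lower.

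All 9 genes for JAK kinases and signalling partners were tested, and 3 rose and 5 fell, where 25.8% of all tested genes rose and 22.1% fell. Of the 9, 3 were called with a change beyond 0.5, against 19.9% of all tested genes. The kinase genes JAK1 and TYK2, whose products bind gp130, fell with log2 fold changes of -0.55 (edgeR FDR = 9.4e-10) and -0.65 (edgeR FDR = 1.0e-10), and JAK2 fell by 0.32 on the log2 scale (edgeR FDR = 0.00279). Counts of JAK1 ranged from 2267 to 2388 in OV3/SCR and from 1442 to 1599 in OV3/COX1KD, without overlap. JAK3, a kinase of the lymphocyte cytokine receptors, rose with a log2 fold change of 0.81 (edgeR FDR = 1.7e-05) from 3.41 ± 0.121 to 5.98 ± 0.836 CPM (SD, n = 3). Of the 6 other STAT genes 4 were tested and 2 fell, where 22.1% of all tested genes fell. The 2 were STAT6, with a log2 fold change of -0.57 (edgeR FDR = 0.00357), and STAT5B, which fell by less than 0.5. STAT5A had 9, 8 and 5 counts in OV3/SCR and 1, 1 and 1 in OV3/COX1KD libraries, under the filter, and its level was 7.17-fold higher in OV3/SCR, with a counting interval from 2.16 to 37.4.

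Among 14 inhibitors of the pathway other than SOCS3, 2 rose, 3 fell and 9 had no call, where 25.8% of all tested genes rose and 22.1% fell. The phosphatase gene PTPN1, which fell by 0.51 on the log2 scale (edgeR FDR = 9.7e-10), was the only inhibitor called with a change beyond 0.5. Of all tested genes 19.9% were so called. Of the other SOCS genes, SOCS5 rose with a log2 fold change of 0.36 and SOCS4 fell by 0.29 on the log2 scale, and 4 had no call. These were SOCS1 with -0.20, SOCS2 with -0.86 at 6 to 19 counts (edgeR FDR = 0.0501), SOCS6 with 0.28 and SOCS7 with 0.05. Of the 4 genes for shedding of the IL6 receptor, the protease gene ADAM17 rose with a log2 fold change of 0.28 (edgeR FDR = 2.9e-06), ADAM10 had 0.06 (edgeR FDR = 0.112), RHBDF1 fell by 0.32 on the log2 scale (edgeR FDR = 4.6e-06) and RHBDF2 had -0.02 (edgeR FDR = 0.724).

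Of 31 genes known as STAT3 targets, other than family members, 26 were in the count table and 20 were tested, of which 6 rose, 8 fell and 6 had no call, so that 14 of 20 were called where 47.9% of all tested genes were. Their median log2 fold change was -0.07, close to that of all tested genes. The cyclin gene CCND1 (log2 fold change -1.52, edgeR FDR = 7.2e-17) and the interferon response factor gene IRF1 (-0.98, edgeR FDR = 9.8e-10) fell beyond 0.5. The immediate-early gene FOS (1.01, edgeR FDR = 5.3e-08), CEBPB, which encodes a factor of the acute phase response (0.53, edgeR FDR = 1.7e-11), and the metalloproteinase inhibitor gene TIMP1 (0.52, edgeR FDR = 6.9e-07) rose beyond it. At an FDR under 0.01, 10% of all tested genes fell and 9.87% rose beyond 0.5. The acute phase genes SAA1, SAA2, HP, LBP and A2M had at most 12 counts in a library. Over all 7 lists without the family members, 13 genes rose and 21 fell of 58 tested, where 25.8% of all tested genes rose and 22.1% fell, and 8 rose and 23 fell when libraries were scaled by total counts.

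**Figure D5:**
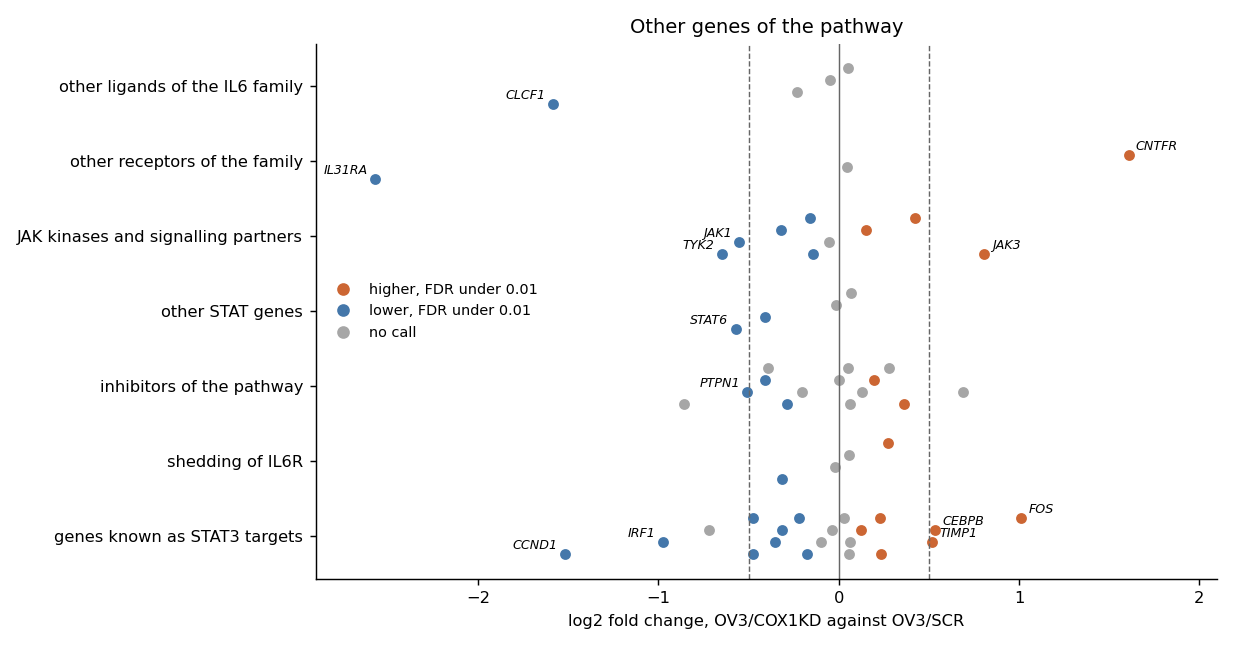
Log2 fold change of OV3/COX1KD against OV3/SCR (x axis) of the 58 tested pathway genes outside the 10 family genes, 1 point a gene and 1 row a list, coloured by the call at an FDR under 0.01, with names for those beyond 0.5. CNTFR at 1.61 and IL31RA at -2.57 are the extremes, and the targets of STAT3 lie on both sides of 0.

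Over the 6 libraries, the 3 genes averaging 1 log2 CPM or more whose centred log2 CPM profile was nearest to that of IL6, of 13012 compared, were LINC00052, a long noncoding RNA (Euclidean distance 0.628 log2 CPM), PMEPA1, a target and inhibitor of TGF-β signalling (0.642), and RCAN2, a regulator of calcineurin (0.769). PMEPA1 had 217, 238 and 238 counts in OV3/SCR and 30, 23 and 16 in OV3/COX1KD libraries. With 2 conditions of 3 libraries, such a distance reflects mainly the size of the fall in log2 CPM. These values include a prior count, which shrinks the fall of a gene with as few counts as IL6. The fitted log2 fold changes of LINC00052, PMEPA1 and RCAN2 were -2.85, -3.29 and -3.57, smaller falls than the -4.31 of IL6.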

How the data were processed

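RNA-seq was measured in 3 OV3/SCR and 3 OV3/COX1KD libraries. The authors mapped reads with TopHat2 (version 2.0 in the submitters' processing notes) on hg19. The deposited values are their raw HTSeq counts per gene. The annotation and strand setting of the counting are not given in the sources used here.

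Counts were analysed with edgeR 4.0.16 in R 4.3.3 (TMM, filterByExpr, glmQLFit and glmQLFTest, condition as the only factor), over 17309 of 34811 genes. Of these, rows of the IL6 family and pathway lists are reported. A standard error is the log2 fold change divided by the square root of F. Thresholds were an FDR under 0.01, alone, with a log2 fold change beyond 0.5, or with a fold change above 2.5. Library depth lay between 25291505 and 27391538 counts. Floors and the exact intervals of summed counts cover counting error only, whereas the intervals of log2 fold changes come from the edgeR fit. Within a condition, differences between libraries exceeded sampling noise (chi-square per degree of freedom from 1.74 to 5.74). Coordinates and lengths are taken from the GRCh37 lift (hg19) of GENCODE 44, which covered 33556 genes.

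Members and lists were chosen with earlier results of these data known. Named pathway genes passed both the FDR of 0.01 and the log2 limit of 0.5, or were JAK1, JAK2, TYK2, ADAM10 or ADAM17, and some list genes are not reported here. Others named by list or position, and the counts of low-count genes, were chosen after their values were seen. Alternatives were RLE factors, total count scaling, no filter, 10 counts in every library, DESeq2 1.42.0, the replicate number as a block and leaving out each library.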

Additional observations from a re-analysis of the deposited data

How the results depend on the processing

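Under the 12 alternatives to each result, 9 of the 10 family genes passed an FDR of 0.01, except with at least 10 counts in every library, where IL6 was not tested and 8 passed. The 9 genes kept their direction in every fit that tested them. IL11RA had no call in any, and its log2 fold change of 0.02 changed sign with total count scaling (-0.058) and within a leave-one-out range from -0.064 to 0.14. The fitted log2 fold change of IL6 ranged from -5.17 without OV3/COX1KD replicate 2 to -3.75 without OV3/COX1KD replicate 3, and that of IL11 from -1.14 without OV3/COX1KD replicate 1 to -0.74 without OV3/COX1KD replicate 3. STAT3 was smallest with total count scaling (0.15, edgeR FDR = 0.00263). The pathway genes called numbered 34, and between 28 and 37 over the alternatives, 29 of them with DESeq2. The labels speak of replicate pairs but do not say that equal numbers mark a pair, so the numbers were not used as a pairing in the main fit. Deviations of libraries with the same number correlated at 0.0045, 0.042 and 0.009 over all tested genes. Such a correlation cannot exclude a pairing that shows in single genes. With the replicate number as a block, 9 family genes and 33 pathway genes were called, the log2 fold change of IL6 being -4.31. The block lowered the SE of LIFR from 0.0683 to 0.0515, of IL6ST from 0.0462 to 0.0382 and of SOCS3 from 0.0405 to 0.0362. It raised the SE of the other family genes. At this depth a difference between levels that both lay under the floor of 3 counts was not measurable.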
